A study of Homo sapiens with 8 samples.

Results

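Signalling through the kinase ERK is held in check by genes that ERK itself switches on. A set of 10 ERK-induced genes, called the feedback genes here for short, was followed across the arrays of this study. They were the dual-specificity phosphatases DUSP4, DUSP5 and DUSP6, the Sprouty genes SPRY1, SPRY2 and SPRY4, the Sprouty-related genes SPRED1 and SPRED2, and the transcription factors ETV4 and ETV5. ETV4 and ETV5 carry part of the response to ERK rather than hold it in check. The genes were found by symbol, as the array features whose first annotated gene symbol was one of these names, and 10 of the 20219 gene symbols on the arrays qualified, each through 1 feature.

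As background, growth factor receptors activate RAS, RAF, MEK and ERK in turn, and ERK then drives ETS and AP-1 family transcription factors. DUSP6 removes the activating phosphates from ERK in the cytoplasm, DUSP4 and DUSP5 act in the nucleus, Sprouty and SPRED proteins block the pathway at the level of RAS and RAF, and ETV4 and ETV5 are ETS factors that carry part of the transcriptional response. In mammary epithelial cells grown with EGF the transcripts of such genes are widely read as a measure of how active the ERK pathway is.

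The cells were MIV-Luc, a luciferase-expressing derivative of MCF10CA1a, the metastatic member of the MCF10A series of human mammary epithelial cell lines. MIV-Luc cells carried either a scrambled hairpin (shSCR) or 1 hairpin against the interleukin-13 receptor IL-13Rα2 (shIL13Rα2#2), each as a drug-selected pool rather than as clones. Both lines were left without IL-13 or were given IL-13 at 20 ng/ml for 16 h, which made 4 groups, named here MIV-Luc-shSCR (− IL-13), MIV-Luc-shIL13Rα2#2 (− IL-13), MIV-Luc-shSCR (+ IL-13) and, as the combination, MIV-Luc-shIL13Rα2#2 (+ IL-13). All 4 groups grew in medium that held EGF at 20 ng/ml, and each was measured on 2 expression arrays described as biological replicates. The values are log2 signals after robust multi-array averaging (RMA), so that a difference of 1 is a 2-fold change, and the 2 arrays of a group are called A and B in the order of their columns.

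The targeted gene followed its labels. IL13RA2 stood at 8.07 and 8.09 in MIV-Luc-shSCR (− IL-13), at 9.36 and 9.33 in MIV-Luc-shSCR (+ IL-13), at 6.52 and 6.34 in MIV-Luc-shIL13Rα2#2 (− IL-13) and at 8.23 and 8.15 in MIV-Luc-shIL13Rα2#2 (+ IL-13). Knockdown cells with IL-13 thus carried about as much IL13RA2 transcript as shSCR cells without it, a difference of 0.11 ± 0.11 (SE). SERPINB3, an IL-13-responsive serpin, was 3.88 ± 0.12 (SE) higher with IL-13 in shSCR cells and 3.28 ± 0.12 (SE) higher in knockdown cells. The array medians ranged from 5.02 to 5.06 and no 2 arrays held identical values. Of the epithelial markers KRT5, KRT6A, KRT14, KRT17, CDH1 and EPCAM, KRT14 was the lowest at 6.54 to 7.04 and EPCAM the highest at 11.8 to 12.1. The 4 leukocyte markers lay between 2.27 for PTPRC and 5.71 for CD14, the 4 fibroblast markers between 4.40 for PDGFRB and 6.29 for COL1A1, and the endothelial marker CDH5 between 4.40 and 4.83. PECAM1, listed as an endothelial marker, was higher, between 7.71 and 8.82. It averaged 0.52 ± 0.09 (SE) above shSCR in knockdown cells (limma, adjusted p = 0.0615). With IL-13, averaged over both lines, PECAM1 differed by -0.52 (limma, adjusted p = 0.0938). Its part in the results on the feedback genes was not tested. RNA came from whole cultures, so that less transcript in every cell and fewer cells with the transcript cannot be told apart.

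Of the 10 genes, DUSP6 and SPRY1 showed the widest spread between group means, and the DNA around a transcription start of each is shown. RefSeq promoter windows of 300 bases, 250 before and 50 after a transcription start, were at hand for 6 of the 10 genes. They were searched on both strands for the letters CCGGAA (ETS family), TGANTCA (AP-1), TGACGTCA (CRE), TTCNNNNGAA (the spacing that STAT6 prefers), TTCNNNGAA (other STAT factors) and the CArG box. Capitals in the sequences below mark every match, and coordinates are on GRCh38.p14.
DUSP6 promoter, chr12:89352452-89352751, minus strand: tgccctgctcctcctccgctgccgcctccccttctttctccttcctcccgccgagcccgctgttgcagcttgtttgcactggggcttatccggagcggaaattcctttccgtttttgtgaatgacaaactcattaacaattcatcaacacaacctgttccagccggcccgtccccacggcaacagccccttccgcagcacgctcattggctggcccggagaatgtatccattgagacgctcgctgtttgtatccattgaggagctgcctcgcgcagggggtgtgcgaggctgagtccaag
SPRY1 promoter at the downstream of its 2 annotated starts, chr4:123398136-123398435, plus strand: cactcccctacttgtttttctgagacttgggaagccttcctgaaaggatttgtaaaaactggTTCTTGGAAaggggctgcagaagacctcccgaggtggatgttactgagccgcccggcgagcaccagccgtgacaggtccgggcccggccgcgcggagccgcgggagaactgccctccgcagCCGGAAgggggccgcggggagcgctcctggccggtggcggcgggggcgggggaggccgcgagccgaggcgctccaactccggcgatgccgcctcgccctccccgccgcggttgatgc

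The DUSP6 window held none of these motifs. The SPRY1 window held the motif TTCNNNGAA 188 bases before the start, and the ETS motif 67 bases before it. Among all 35116 promoter windows, 7.66% held the STAT motif and 17.2% the ETS motif, so neither is rare. The other SPRY1 window, at the upstream start, held none. A SPRY2 window also held CCGGAA, and a SPRED2 window held the letters for AP-1 and the STAT6 spacing, which occurred in 7.71% and 6.44% of all windows. None of the 10 windows of these genes held a CRE, found in 1.85% of all windows, or a CArG box, found in 1.29%.

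None of the 10 feedback genes was called in any of the 8 comparisons, when a call needed an adjusted p below 0.05 in limma over all 29141 features and a fold above 2. Calls were rare over all features too, so a count of 0 among 10 genes is near that share. The widest difference between group means was 0.60, for SPRY1, so outside the interaction the fold threshold alone fixed this count. The share of all features called was 0.0583% for IL-13 in shSCR cells, 0.0652% for the knockdown without IL-13, 0.0618% for IL-13 in knockdown cells, 0.0515% for the knockdown where IL-13 was present and 0.154% for knockdown cells with IL-13 against shSCR cells without it. It was 0.0927% for IL-13 averaged over both lines, 0.0755% for the knockdown averaged over both treatments and 0% for the interaction of knockdown and IL-13, where a call needed the adjusted p alone. The 95% intervals, which are not adjusted for the number of genes, lay within a 2-fold change for all 10 genes in every comparison. The bound farthest from 0 in a comparison of 2 groups was 0.85, a 1.80-fold change, for SPRY1 between knockdown cells with IL-13 and shSCR cells without it.

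Smaller differences were present. At an unadjusted p below 0.05, 1 of the 10 genes passed for IL-13 in shSCR cells (6.79% of all features), 2 for the knockdown without IL-13 (9.51%), 1 for IL-13 in knockdown cells (6.93%), 1 for the knockdown where IL-13 was present (7.07%) and 4 for knockdown with IL-13 against neither (9.56%). Averaged over the other factor, 2 genes passed for IL-13 (8.73%) and 3 for the knockdown (11.3%), and none passed for the interaction (4.47%). The 3 genes of the averaged knockdown comparison were DUSP4, DUSP6 and SPRY1, and the 4 of knockdown with IL-13 against neither were the same genes and ETV5. Neighbouring groups in the order of a gene's means mostly lay within their spread, and 1 of the 30 steps between neighbours exceeded the half-width of the 95% interval, that of SPRY1 from mock shSCR to mock knockdown cells. The median difference of the 10 genes was -0.17 for knockdown with IL-13 against neither, where all features had a median of 0.01, and -0.09 for the knockdown averaged over both treatments, where all features had -0.01. The other medians ran from -0.14 to 0.01. MIV-Luc-shIL13Rα2#2 (+ IL-13) had the lowest mean of the 4 groups for 5 of the 10 genes and MIV-Luc-shIL13Rα2#2 (− IL-13) for 3. The matching share over all features was not computed. Some of these orders rest on narrow spreads of the group means, 0.07 for SPRY4 and 0.12 for SPRED2.

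**Figure D1:**
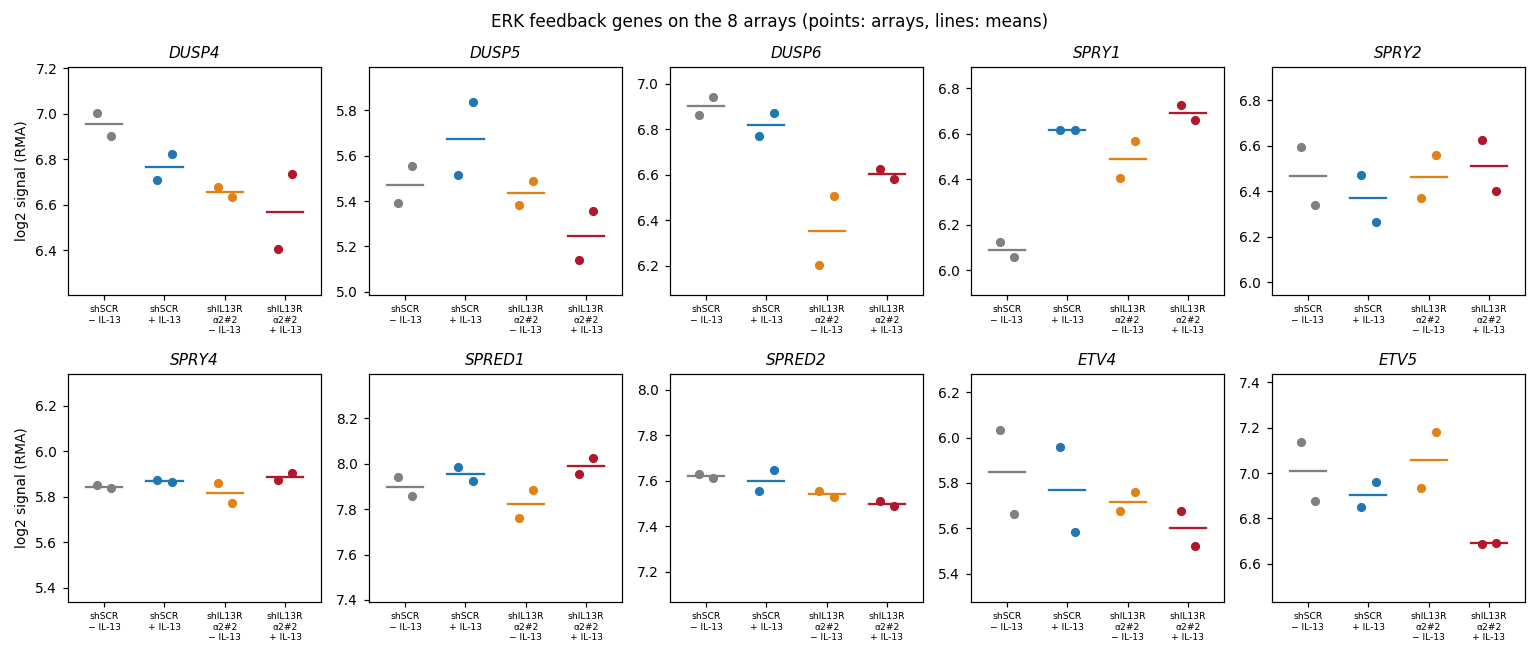
Log2 RMA signal of the 10 ERK feedback genes on each of the 8 arrays; points are arrays, horizontal lines the means of the 2 arrays of a group, and every panel spans 1 log2 unit around the middle of that gene's range. DUSP6 lies below 6.63 on the 4 knockdown arrays and above 6.77 on the 4 shSCR arrays, SPRY1 is lowest on the 2 arrays of MIV-Luc-shSCR (− IL-13), and SPRY4 and SPRED2 hardly vary.

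Among the phosphatases, DUSP6 had the largest difference between the lines. DUSP6, the phosphatase most specific for ERK, read 6.86 and 6.94 in MIV-Luc-shSCR (− IL-13), 6.77 and 6.87 in MIV-Luc-shSCR (+ IL-13), 6.20 and 6.50 in MIV-Luc-shIL13Rα2#2 (− IL-13) and 6.63 and 6.58 in MIV-Luc-shIL13Rα2#2 (+ IL-13). All 4 knockdown arrays were below all 4 shSCR arrays, a separation that 1 of the 10 genes and 7.13% of all features showed. The difference without IL-13 was -0.55 ± 0.13 (SE), or 0.683-fold, with an interval from -0.85 to -0.25 and an adjusted p of 0.283 in limma. With IL-13 it was -0.22 ± 0.13 (SE), with an interval from -0.51 to 0.08. Averaged over both treatments it was -0.38 ± 0.09 (SE), the 505th smallest p-value of 29141, with an adjusted p of 0.174 in limma. With limma's trended, robust variance prior that adjusted p was 0.0487, and the difference stayed short of 2-fold. With IL-13 the difference was 0.25 ± 0.13 (SE) in knockdown cells and -0.08 ± 0.13 (SE) in shSCR cells, and the interaction of 0.33 ± 0.18 (SE) had an interval that included 0, from -0.09 to 0.75. Knockdown cells with IL-13 differed from mock shSCR cells by -0.30 ± 0.13 (SE) (limma, adjusted p = 0.519).

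DUSP4, a nuclear phosphatase that acts on ERK and other MAP kinases, had its highest values in mock shSCR cells. It read 7.0 and 6.90 in MIV-Luc-shSCR (− IL-13), 6.71 and 6.82 in MIV-Luc-shSCR (+ IL-13), 6.68 and 6.63 in MIV-Luc-shIL13Rα2#2 (− IL-13) and 6.40 and 6.73 in MIV-Luc-shIL13Rα2#2 (+ IL-13). Both mock shSCR arrays were above all others, and the array at 6.40 sat well below its partner. Knockdown cells with IL-13 differed from shSCR cells without it by -0.38 ± 0.13 (SE), with an adjusted p of 0.427 in limma, and without the array at 6.40 the difference was -0.22. The steps between neighbouring groups, from the highest mean to the lowest, were 0.19, 0.11 and 0.09, each less than the half-width of 0.31 of the interval between 2 groups.

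DUSP5, a nuclear phosphatase specific for ERK, had its largest difference between the IL-13-treated lines. It read 5.39 and 5.56 in MIV-Luc-shSCR (− IL-13), 5.51 and 5.84 in MIV-Luc-shSCR (+ IL-13), 5.38 and 5.49 in MIV-Luc-shIL13Rα2#2 (− IL-13) and 5.14 and 5.36 in MIV-Luc-shIL13Rα2#2 (+ IL-13). Among IL-13-treated cells the knockdown arrays were both below the shSCR arrays, by -0.43 ± 0.15 (SE), with an interval from -0.77 to -0.09 and an adjusted p of 0.604 in limma. Without IL-13 the difference was -0.04 ± 0.15 (SE). The interaction was -0.39 ± 0.21 (SE), with an interval from -0.87 to 0.09.

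SPRY1 had the widest spread of group means of the 10 genes, 0.60, with its lowest values where DUSP4 and DUSP6 had their highest. SPRY1, whose protein inhibits receptor tyrosine kinase signalling upstream of ERK, read 6.12 and 6.06 in MIV-Luc-shSCR (− IL-13), 6.61 and 6.62 in MIV-Luc-shSCR (+ IL-13), 6.40 and 6.57 in MIV-Luc-shIL13Rα2#2 (− IL-13) and 6.73 and 6.66 in MIV-Luc-shIL13Rα2#2 (+ IL-13). The mock shSCR arrays were below all the others, and the 4 arrays with IL-13 were above the 4 without it. That second separation was found for 2 of the 10 genes, SPRY1 and SPRY4, and for 4.78% of all features. IL-13 in shSCR cells went with a difference of 0.53 ± 0.11 (SE), or 1.44-fold, the 102nd smallest p-value of 29141, with an adjusted p of 0.366 in limma. The knockdown without IL-13 went with 0.40 ± 0.11 (SE), or 1.32-fold, with an adjusted p of 0.349 in limma. Both comparisons rest on the same 2 mock shSCR arrays. In cells that already had the other change the differences were smaller, 0.20 ± 0.11 (SE) for IL-13 in knockdown cells and 0.08 ± 0.11 (SE) for the knockdown where IL-13 was present. Knockdown cells with IL-13 were 0.60 ± 0.11 (SE) above mock shSCR cells, or 1.52-fold, with an interval from 0.35 to 0.85 and an adjusted p of 0.0952 in limma, the lowest of any of the 10 genes in any comparison. With the trended, robust prior it was 0.0244. The interaction was -0.32 ± 0.15 (SE), with an interval from -0.67 to 0.03, so that a less than additive response was not separated from an additive one.

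SPRY2 and SPRY4 encode close relatives with the same inhibitory role. SPRY2 read 6.60 and 6.34 in MIV-Luc-shSCR (− IL-13), 6.47 and 6.26 in MIV-Luc-shSCR (+ IL-13), 6.37 and 6.56 in MIV-Luc-shIL13Rα2#2 (− IL-13) and 6.62 and 6.40 in MIV-Luc-shIL13Rα2#2 (+ IL-13), with all 4 groups overlapping. SPRY4 stayed within 5.77 to 5.90, a range of 0.13, the narrowest of the 10 genes. Its arrays with IL-13 were all above those without it, but by only 0.05 ± 0.07 (SE) on average. For IL-13 averaged over both lines the intervals were -0.27 to 0.22 for SPRY2 and -0.12 to 0.21 for SPRY4, against 0.19 to 0.54 for SPRY1.

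The SPRED genes, whose proteins bring the RAS-inactivating protein NF1 to the membrane, were steady. SPRED1 read 7.94 and 7.86 in MIV-Luc-shSCR (− IL-13), 7.99 and 7.92 in MIV-Luc-shSCR (+ IL-13), 7.76 and 7.89 in MIV-Luc-shIL13Rα2#2 (− IL-13) and 7.95 and 8.02 in MIV-Luc-shIL13Rα2#2 (+ IL-13). SPRED2 read 7.63 and 7.61, 7.55 and 7.65, 7.56 and 7.53, and 7.51 and 7.49 in the same order of groups. The widest difference between 2 group means was 0.17 for SPRED1 and 0.12 for SPRED2. In the averaged comparisons both genes had intervals that held 0 and reached no farther than 0.29 from it, with SPRED1 under IL-13 the farthest.

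The transcription factors differed from each other in how well their arrays repeated. ETV4 read 6.03 and 5.67 in MIV-Luc-shSCR (− IL-13), 5.96 and 5.58 in MIV-Luc-shSCR (+ IL-13), 5.68 and 5.76 in MIV-Luc-shIL13Rα2#2 (− IL-13) and 5.68 and 5.52 in MIV-Luc-shIL13Rα2#2 (+ IL-13). Its SD between arrays of a group, pooled over the groups, was 0.19, the largest of the 10 genes, and every pair of groups overlapped. ETV5 read 7.14 and 6.88, 6.85 and 6.96, 6.93 and 7.18, and 6.69 and 6.69 in the same order. The 2 arrays of MIV-Luc-shIL13Rα2#2 (+ IL-13) were thus the lowest for ETV5, and IL-13 in knockdown cells went with -0.37 ± 0.14 (SE), or 0.776-fold, with an adjusted p of 0.664 in limma. In shSCR cells the difference was -0.10 ± 0.14 (SE), and the interaction of -0.26 ± 0.19 (SE) had an interval from -0.70 to 0.18.

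**Figure D2:**
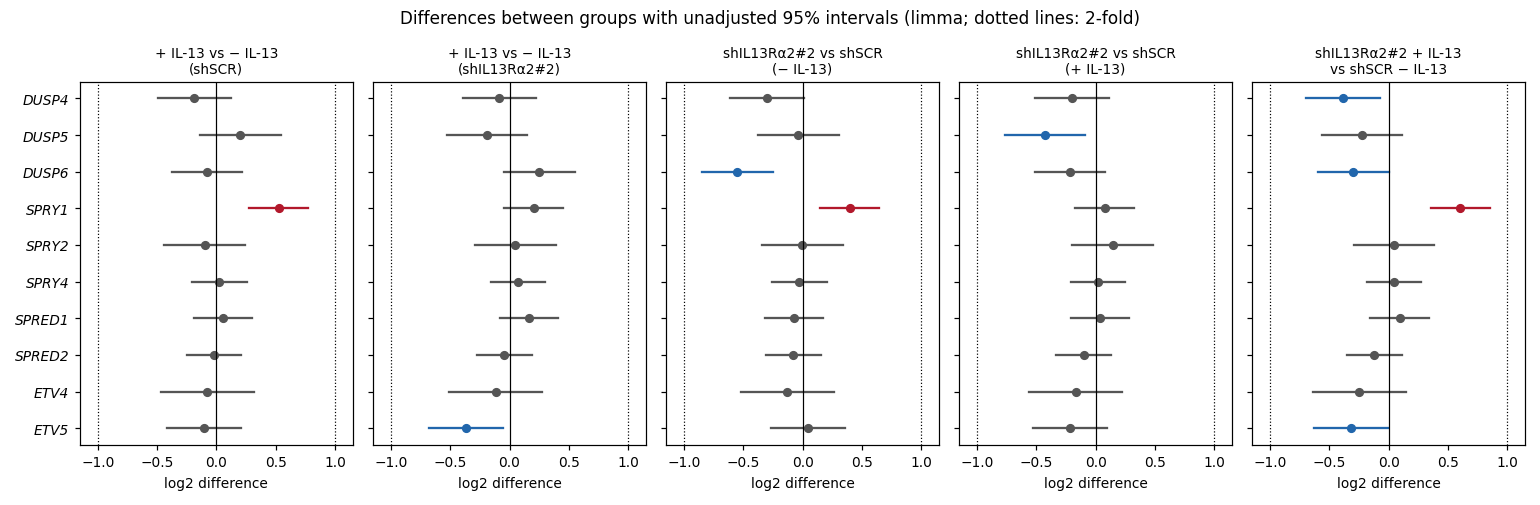
Log2 differences of the 10 ERK feedback genes in the 5 comparisons of 2 groups; points are limma estimates, bars their 95% intervals without adjustment for the number of genes, and dotted lines mark a 2-fold change. Red and blue mark intervals that lie above or below 0, which SPRY1 shows in 3 comparisons, DUSP6 and ETV5 in 2 each and DUSP4 and DUSP5 in 1 each, and no bar reaches a dotted line.

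Arrays of 2 groups that do not overlap are common when each group has 2 arrays, and the feedback genes were read against that. For IL-13 in shSCR cells 3 of the 10 genes were apart (36.7% of all features), for the knockdown without IL-13 4 (41.2%), for IL-13 in knockdown cells 7 (37.4%), for the knockdown where IL-13 was present 6 (36.4%) and for knockdown with IL-13 against neither 8 (40.3%). In the last of these SPRY1, SPRY4 and SPRED1 were higher and DUSP4, DUSP5, DUSP6, SPRED2 and ETV5 lower. SPRY4, SPRED1 and SPRED2 were apart by no more than 0.12 in their means.

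Genes of the same family were also set against each other within each array, as the log2 ratio of the pair. Over 8 pairs and both averaged comparisons, 16 exact permutation tests were run, each two-sided over the 70 ways to divide 8 arrays into 4 and 4, with a smallest possible p of 0.0286. The arrays were divided without regard to the other factor, so the p-values are exact only where that factor made no difference. The SPRY1 to SPRY2 ratio was 0.39 higher with IL-13, from 0.10 to 0.35 on the arrays with IL-13 and from -0.47 to 0.03 on those without, so that the 2 sets of arrays did not overlap, with an exact permutation p of 0.0286, or 0.458 after adjustment over the 16 tests. The SPRY1 to SPRY4 ratio was 0.32 higher with IL-13, with an exact permutation p of 0.114. The DUSP4 to DUSP6 ratio was 0.13 higher in knockdown cells, with an exact permutation p of 0.371. A single pair with fully separate arrays could not pass after adjustment in this design, so that these tests bear neither on equal nor on unequal responses within a family.

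Other genes of the pathway were examined to place the feedback genes. Of 12 further genes whose transcription is known to follow ERK, HBEGF and EGR1 reached an adjusted p below 0.05 in a comparison, without reaching a 2-fold change. HBEGF, an EGF family ligand that itself activates the EGF receptor, read 7.14 and 7.09 in MIV-Luc-shSCR (− IL-13), 7.78 and 7.86 in MIV-Luc-shSCR (+ IL-13), 7.39 and 7.28 in MIV-Luc-shIL13Rα2#2 (− IL-13) and 7.85 and 7.96 in MIV-Luc-shIL13Rα2#2 (+ IL-13). Its 4 arrays with IL-13 were above the 4 without it, a separation that 4.78% of all features showed. Averaged over both lines it rose by 0.64 ± 0.08 (SE) with IL-13, or 1.55-fold (limma, adjusted p = 0.0242). Without any 1 of the 8 arrays that adjusted p lay between 0.0932 and 0.138, and with limma's trended, robust variance prior on all 8 it was 0.00053. ERRFI1, an inhibitor of the EGF receptor that ERK induces, differed by 0.24 ± 0.08 (SE) with IL-13 (limma, adjusted p = 0.452). EGR1, an immediate early transcription factor, read 7.91 and 7.87 in MIV-Luc-shSCR (− IL-13), 7.95 and 7.98 in MIV-Luc-shSCR (+ IL-13), 7.0 and 7.23 in MIV-Luc-shIL13Rα2#2 (− IL-13) and 7.28 and 7.37 in MIV-Luc-shIL13Rα2#2 (+ IL-13). Averaged over both treatments EGR1 fell by 0.71 ± 0.08 (SE) in knockdown cells, or 0.612-fold (limma, adjusted p = 0.018). Without any 1 of the 8 arrays the adjusted p was between 0.051 and 0.0965, and with the trended, robust prior 0.000326. Like DUSP6 and 7.13% of all features, EGR1 had knockdown and shSCR arrays that did not overlap. Every knockdown array was below every shSCR array, and EGR1 was lowest in knockdown cells without IL-13.

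Across that list of 12 ERK output genes, the averaged knockdown comparison had 4 of 12 genes lower and 1 higher at an unadjusted p below 0.05 (11.3% of all features in either direction), with a median of -0.12 where all features had -0.01. The lower genes were EGR1 and, named after their values were seen, FOS at -0.66 (limma, adjusted p = 0.0578), PLAUR at -0.55 (limma, adjusted p = 0.153) and FOSL1 at -0.41 (limma, adjusted p = 0.13). EPHA4, an ephrin receptor also named after its value was seen, was the higher one at 0.50 (limma, adjusted p = 0.286). For IL-13 averaged over both lines, 3 genes were higher at that threshold and 1 was lower (8.73% of all features), with a median of 0.03 over the list. They were HBEGF and, named after their values were seen, EPHA4 and MYC on the higher side and IER3 on the lower. None of the 11 relatives of the feedback genes, other DUSP, SPRY, SPRED and ETV genes, passed an adjusted p. DUSP16, a phosphatase that prefers JNK and p38, was 0.46 ± 0.10 (SE) higher in knockdown cells (limma, adjusted p = 0.149), and DUSP14 differed by -0.26 ± 0.09 (SE) with IL-13 (limma, adjusted p = 0.497).

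Among 20 genes of the RAS, RAF and MEK cascade and the receptors above it, none passed an adjusted p in any comparison. At an unadjusted p below 0.05 the averaged knockdown comparison had 3 of the 20 lower and 1 higher (11.3% of all features in either direction), with a median of 0.04 over the list. They were MAP2K1 and, named after their values were seen, SHC1 and HRAS on the lower side and SOS1 on the higher. The smallest p among these 20 belonged to MAP2K1, which encodes the kinase MEK1, at -0.33 ± 0.08 (SE), or 0.798-fold (limma, adjusted p = 0.198). For IL-13 the smallest p was that of RASA1, a GTPase-activating protein for RAS, at -0.22 ± 0.07 (SE) (limma, adjusted p = 0.455). Of 3 further feedback genes, ERRFI1, LRIG1 and IL17RD, none passed an adjusted p. The arrays measure transcripts only, so that the phosphorylation state of ERK was not measured.

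**Figure D3:**
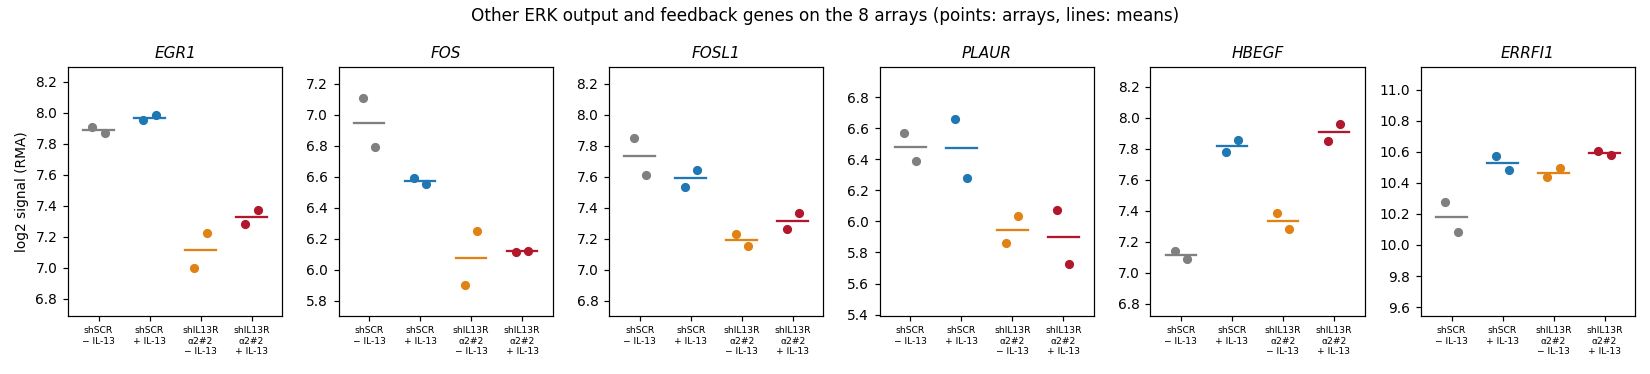
Log2 RMA signal of EGR1, FOS, FOSL1, PLAUR, HBEGF and ERRFI1 on each of the 8 arrays; points are arrays, lines the means of the 2 arrays of a group, and all panels span the same number of log2 units. EGR1, FOS, FOSL1 and PLAUR are lower on the 4 knockdown arrays than on the 4 shSCR arrays. In either direction, 7.13% of all features show that separation. HBEGF is higher on the 4 arrays with IL-13, a separation that 4.78% of all features show in either direction. The panels hold only a part of the lists, and EPHA4, not shown, averaged 0.50 higher in knockdown cells.

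**Figure D4:**
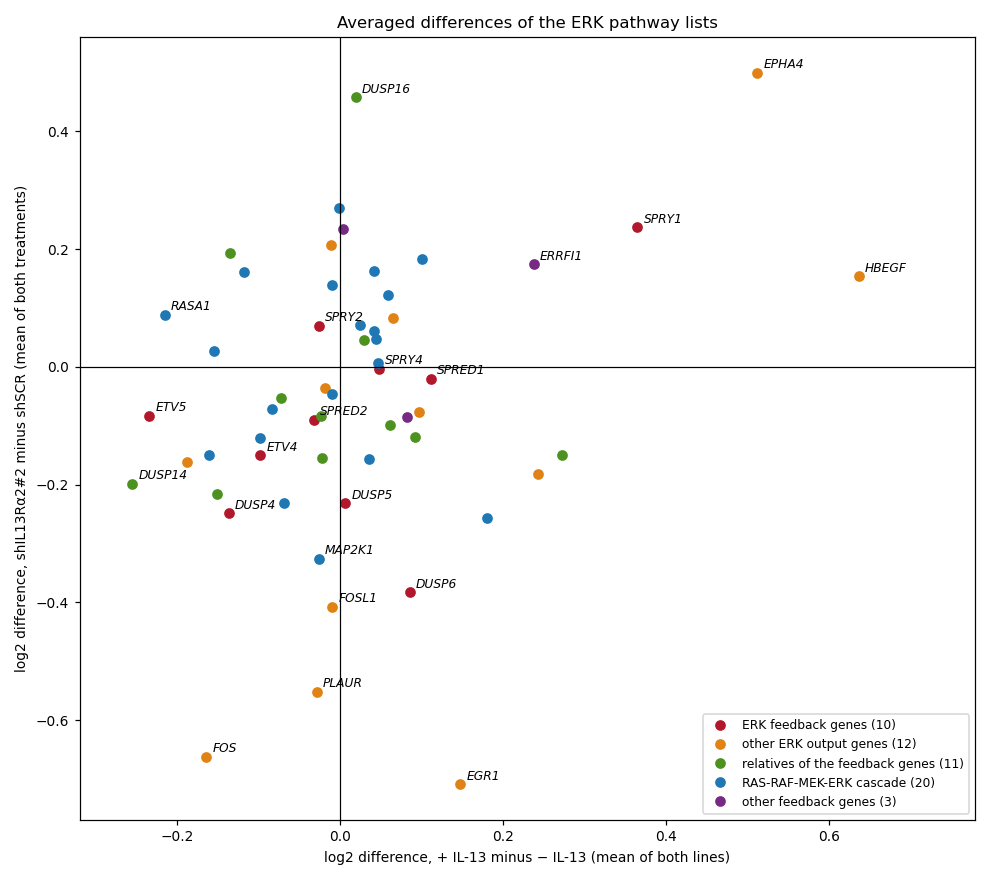
Log2 difference with IL-13 averaged over both lines (horizontal axis) and with the knockdown averaged over both treatments (vertical axis) for the 10 ERK feedback genes and the 4 pathway lists, 1 point per gene. SPRY1 lies at 0.37 and 0.24, near ERRFI1 and on the same side of both axes as HBEGF, EPHA4 and EPHA2. The rest of the list of other ERK output genes, MYC and IER3 among them, lies elsewhere. DUSP6 lies at 0.09 and -0.38, higher on the vertical axis than EGR1, FOS, FOSL1 and PLAUR.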

How the data were processed

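The authors deposited 1 table of gene-level log2 values for 8 arrays, made with RMA in Affymetrix Expression Console 1; the labels name the Human Exon 1.0 ST array and NuGEN amplification. Of 33297 features, 4156 control and spike features were left out, and 29141 were tested. Column headings gave the group of each array but carried running numbers instead of replicate numbers. The values were used as deposited. Group means were fitted to all 8 arrays with limma 3.58.1 in R 4.3.3, with 4 residual and 3.858 prior degrees of freedom, and p-values were adjusted by the Benjamini-Hochberg method over all features. A call needed an adjusted p below 0.05 and a fold above 2, as in the study's methods. The fit was tested on simulated data. The number of arrays limits the precision, and p-values measure the spread between 2 arrays per group. They do not measure variation between transduced pools or between hairpins. Knockdown differences therefore cannot be told apart from other differences between the shSCR and shIL13Rα2#2 pools or from off-target effects of the hairpin. The 10 genes and the pathway lists were chosen with earlier results of these data known, so no list was tested. An item of the cascade list is not reported here. Named from each list were genes with an adjusted p below 0.05 in any comparison and the gene with the smallest p in each averaged comparison; other names are marked as chosen after their values were seen. Where a gene had several features, the one with the highest mean was used. Promoter windows came from RefSeq tables of GRCh38.p14, which matched 6 of the 10 genes. Alternatives were leaving out each array, shifting arrays to 1 median, further quantile normalization, leaving out the dimmest 30% of features, another variance prior, limma on the compared arrays alone, the one-way analysis of variance of the methods, and other thresholds; 2 were added after seeing the data, an unadjusted p without a fold and the intensity trend and robust prior without a fold. Comparisons that share the mock shSCR arrays are not independent of each other.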

Additional observations from a re-analysis of the deposited data

How the results depend on the processing

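No paired analysis was possible because the array columns carried running numbers instead of replicate numbers. The count of 0 feedback genes called held under the other settings chosen at the start that kept all 8 arrays. Those run on all 8 comparisons were arrays shifted to 1 median, further quantile normalization and leaving out the dimmest 30% of features. Another variance prior and a fold threshold of 1.5 or none were also run on all 8. Limma on the compared arrays alone covered the 5 comparisons of 2 groups. The methods' analysis of variance, at an unadjusted or adjusted p, covered all but the interaction. The widest difference between group means was 0.60, for SPRY1. Outside the interaction, settings that kept the 2-fold threshold could thus hardly give another count, and their 0 is no support. Only a lower fold threshold or none left room for a call. Of 2 alternatives chosen after seeing the data, the unadjusted p without a fold gave 1, 2, 1, 1 and 4 genes in the 5 comparisons of 2 groups and 2 and 3 in the averaged ones for IL-13 and the knockdown, and the intensity trend and robust prior without a fold gave 1 gene for knockdown with IL-13 against neither, SPRY1 (adjusted p = 0.0244), and 1 for the averaged knockdown, DUSP6 (adjusted p = 0.0487). Under that prior with the 2-fold threshold the count was 0. The share of all features called under that prior without a fold was not computed, so these counts have nothing to be read against. Without any 1 array, the median difference of the 10 genes ranged from -0.0492 to 0.0301 for IL-13 in shSCR cells, from -0.136 to -0.067 for the knockdown among IL-13-treated cells, from -0.174 to -0.0892 for knockdown with IL-13 against neither, from -0.102 to -0.0257 for the knockdown without IL-13, from -0.121 to -0.0385 for the averaged knockdown and from -0.00639 to 0.0994 for the interaction, and the -0.0892, -0.0257 and -0.0385 were without array A of mock shSCR, the -0.102 and -0.121 without array B. The cause was not tested.

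Every difference with an unadjusted p below 0.05 kept its sign under the refits, and 44 of the 726 values of the other differences changed sign. Leaving out 1 array took DUSP6 in knockdown cells without IL-13 from -0.70 to -0.40, SPRY1 with IL-13 in shSCR cells from 0.49 to 0.56, DUSP5 among IL-13-treated cells from -0.59 to -0.27, ETV5 with IL-13 in knockdown cells from -0.49 to -0.24 and, for knockdown with IL-13 against neither, DUSP4 from -0.55 to -0.22 and ETV5 from -0.45 to -0.19. Shifting the arrays to 1 median moved none by more than 0.02. With 2 arrays per group, differences much smaller than the interval half-widths, 0.23 to 0.39 for these genes in comparisons of 2 groups, were not detectable. Larger differences did not pass after adjustment either. For knockdown with IL-13 against neither, SPRY1 at 0.60 had an adjusted p of 0.0952 in limma.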
